A study of Rattus norvegicus with 6 samples.

Results

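The miR-344 family was described here from small RNA libraries of the rat hypothalamic arcuate nucleus (ARC), a region at the base of the hypothalamus that holds neurons of feeding and of endogenous opioid synthesis. Its members were taken by name, as every mature miRNA whose name starts with rno-miR-344, which gave 7 of the 562 miRNAs listed in the deposited files. The 7 were rno-miR-344b-5p, rno-miR-344a-3p, rno-miR-344b-1-3p, rno-miR-344b-3p, rno-miR-344i, rno-miR-344a-5p and rno-miR-344g. Adult Sprague-Dawley rats aged 8 to 10 weeks had received either chronic constriction injury of the left infraorbital nerve (CCI-ION), in which loose silk ligatures are tied around a sensory branch of the trigeminal nerve, or a sham operation in which that nerve was exposed and not tied. ARC tissue was taken on Day 14, and 3 sham and 3 CCI-ION libraries were sequenced. No genetic change, drug or vector was part of either group. The profiling of these miRNAs is described as made on 6 rats per group, and how those rats map to the 3 libraries of a group is not stated, so that a library may hold RNA of more than 1 rat. Here n counts libraries, and p-values measure the spread between these libraries. Where 3 values are given for a group, they follow the order of its replicates 1, 2 and 3.

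Animal miRNAs are cut from a hairpin transcript, and either arm of the hairpin (5p or 3p) can be loaded into an Argonaute protein. The loaded strand recognises messenger RNAs chiefly through its seed, bases 2 to 8 counted from its 5′ end, and lowers their stability and translation. A change of a single base in the seed therefore changes which messenger RNAs can be recognised, whereas both arms of a hairpin are made from the same transcript in equal number before the loading and decay of each strand set their levels. miR-344 hairpins are known from rodents and occur there as several related copies.

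Mature sequences are shown because a single base separates the pair of members on which the comparison turns. They were taken from the RefSeq miRNA table on build GRCr8, in which 6 of the 7 member names had an entry, and the seed is in capitals.

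rno-miR-344b-5p: aGUCAGGCugcugguuauauuc
rno-miR-344g: aGUCAGGCuccuggcaggaguc
rno-miR-344a-5p: uCAGGCUCcuggcuagauu
rno-miR-344b-3p: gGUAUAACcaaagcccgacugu
rno-miR-344b-1-3p: gAUAUAACcaaagcccgacugu
rno-miR-344i: cUCUAGCCagggcuugacugca

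No entry named rno-miR-344a-3p was found. The gene Mir344-1, for which the table gives Mir344a-1 as an older symbol, holds a 23-base entry on its 3p side under the name rno-miR-344-3p, uGAUCUAGccaaagccugaccgu. Whether the deposited values of miR-344a-3p were counted on that sequence is not given in the sources used here.

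By their place in the hairpin, miR-344b-5p, miR-344a-5p and miR-344g lay on the 5p side, and miR-344b-3p, miR-344b-1-3p and miR-344i on the 3p side. miR-344b-5p and miR-344g shared a seed and matched at 16 of 22 bases. miR-344b-3p and miR-344b-1-3p matched at 21 of 22 bases, and the difference was G2A, with positions counted from 1 at the 5′ end of miR-344b-3p. That base is the first of the seed. Seed GUAUAAC was held by no other mature name in the table, whereas AUAUAAC, the seed of miR-344b-1-3p, was also that of rno-miR-410-3p, a miRNA of the imprinted Dlk1-Dio3 region. The seed of miR-344a-5p was shared with rno-miR-484. Both were listed in the files, and their sequences are printed for comparison.

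rno-miR-410-3p: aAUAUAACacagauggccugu
rno-miR-484: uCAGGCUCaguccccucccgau

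Within the family, the 3p strands of Mir344-1 and of the miR-344b hairpins shared the run CCAAAGCC and matched at 18 of 22 bases for miR-344b-1-3p and at 17 of 22 for miR-344b-3p. The 5p strands miR-344a-5p and miR-344g had a run of 13 bases in common, and all 19 bases of miR-344a-5p also lay in the 5p strand of Mir344-1.

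All 7 hairpins of the family in the table lay on the minus strand of chromosome 1 within 809.7 kb, from position 124028505 to 124838208 of GRCr8. The miR-344b hairpins stood together at one end: Mir344b-2 (chr1:124028505-124028575), Mir344b-1 (chr1:124035661-124035758) and Mir344b-3 (chr1:124044536-124044606), with 7.09 and 8.78 kb between neighbours. After a gap of 610.4 kb followed Mir344a-2 (chr1:124655022-124655128), Mir344-1 (chr1:124718754-124718851), Mir344g (chr1:124754942-124755020) and Mir344i (chr1:124838110-124838208). Between or over these hairpins the RefSeq gene table held 8 long noncoding RNA genes and 1 pseudogene and no protein-coding gene, and Mir344b-2 lay within the bounds of the long noncoding RNA gene LOC120099831. The protein-coding genes that followed Mir344i in chromosome order were Ndn, Magel2, Mkrn3 and Peg12, which are imprinted genes of the region that corresponds to the human Prader-Willi locus. Messenger RNA was not measured here. These positions describe the RefSeq entries, since the files were made on build rn6.

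Mir344b-2 and Mir344b-3 were identical over their whole length, and Mir344b-1 differed from them by a single base, G48A, over the 71 bases that they share, counted from the 5′ end of Mir344b-2. The stretches are printed with that base in capitals.

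Mir344b-2: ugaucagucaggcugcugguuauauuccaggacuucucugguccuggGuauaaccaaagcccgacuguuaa
Mir344b-1: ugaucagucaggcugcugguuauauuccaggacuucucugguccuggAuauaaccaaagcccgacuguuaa

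In the minimum free energy fold, this base paired with the U at position 25 in both, as G with U in Mir344b-2 and as A with U in Mir344b-1, and the fold energies were -39.5 and -40.1 kcal/mol. The 5p strand was the same in all 3 hairpins, so values of miR-344b-5p cannot be divided among them. The 3p strands can be, since miR-344b-3p comes from Mir344b-2 or Mir344b-3 and miR-344b-1-3p from Mir344b-1. How reads with a mismatch were assigned is not given in the sources used here. The counting could have moved reads from either name to the other or entered them under both. This leaves each single value uncertain to that extent.

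Deposited values are normalized counts, that is read numbers scaled by 1 size factor per library. Libraries held between 11115049 and 14313839 reads in the sham group and between 8628309 and 11297551 reads in the CCI-ION group. The smallest value listed above 0 was worth 5 reads in each library, and a 0 in the files stands for less than this. Markers of neurons summed to between 4251070 and 5280770 normalized counts per sham library and to between 2764220 and 3448640 per CCI-ION library. Most of that difference lay in miR-7a-5p (log2 fold change -1.04), which did not pass the threshold (limma, adjusted p = 0.0828), and without it the sums were 2175370 to 2365660 in sham and 1693130 to 2096740 in CCI-ION libraries. Of these 9 neuronal miRNAs, 2 fell (miR-124-3p and miR-218a-5p) and 0 rose past an adjusted p of 0.05, which 6.85% of all miRNAs passed in either direction. Summed values did not separate the groups for lists of pituitary and epithelium (10541 to 15566 in sham and 13061 to 30452 in CCI-ION libraries), choroid plexus and ependyma, erythrocytes or muscle. The erythrocyte sum was mostly miR-486 (log2 fold change -0.081), while miR-451-5p, the other name of that list, lay wholly above sham in CCI-ION libraries (1.07, adjusted p = 0.0649 from limma). For 3 oligodendrocyte miRNAs the sums were 9165 to 14031 in sham and 7133 to 7612 in CCI-ION libraries, and 1 of the 3 fell (miR-338-3p, log2 fold change -1.27, limma adjusted p 0.0190) while none had a positive fold change. In bulk tissue, fewer cells of a type and less RNA per cell cannot be told apart.

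Levels within the family spanned more than 3 powers of 10. Summed over its members, the family had 34124, 38683 and 38906 normalized counts over the sham libraries and 46638, 42729.9 and 48350.5 over the CCI-ION libraries. This was 0.311% ± 0.0379 of all normalized counts for sham and 0.440% ± 0.0311 for CCI-ION libraries (SD, n = 3 each), and the groups did not overlap in either measure, CCI-ION being the higher. The percent of all counts is the total-count scaling in another form and not a further reading. The ratio of the group means of the sum was 1.23 on the deposited scaling and 1.41 with total counts. With totals that leave out the most abundant miRNA it was 1.28. With upper-quartile scaling it was 0.978 and the groups overlapped, so the direction of the family sum depends on the scaling. Strands of the miR-344b hairpins and miR-344a-3p made up nearly the whole of it. miR-344b-5p alone gave 61.7% ± 2.05 of the sum in sham and 54.7% ± 4.56 in CCI-ION libraries (SD, n = 3 each). The share of miR-344b-3p was 5.87% ± 0.378 in sham and 9.90% ± 0.840 in CCI-ION libraries. For both strands the shares of the groups did not overlap. The share of miR-344i was also lower in CCI-ION libraries without overlap (means of 0.451% in sham and 0.342% in CCI-ION). As shares add up to the whole, a strand that does not rise loses share when others do. Shares of miR-344a-3p and of miR-344b-1-3p overlapped between the groups.

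**Figure D1:**
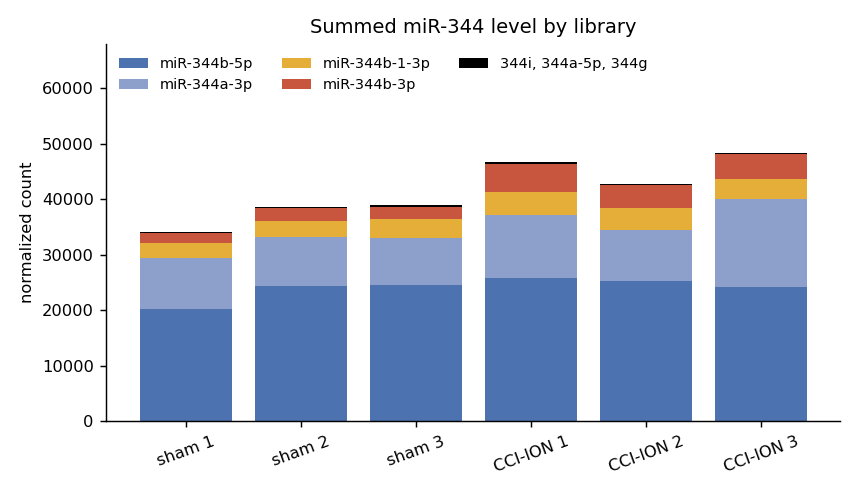
Normalized counts of the miR-344 members stacked by library (x axis, 3 sham and 3 CCI-ION libraries; y axis, normalized count). The sum lies between 34124 and 38906 in sham and between 42729.9 and 48350.5 in CCI-ION libraries, and miR-344b-5p is the largest portion in each. With upper-quartile scaling, which is not drawn, the sums overlap and the ratio of the means is 0.978.

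Ordered by group mean, sham libraries ran miR-344b-5p, miR-344a-3p, miR-344b-1-3p, miR-344b-3p, miR-344i, miR-344a-5p and miR-344g, and the ranges of neighbours in that order did not overlap. In CCI-ION libraries miR-344b-3p and miR-344b-1-3p changed places. There the ranges of this pair overlapped, as did those of miR-344a-5p and miR-344g, although miR-344b-3p was the higher of its pair in 3 of 3 libraries. Mature strands are nearly equal in length, and the values were not divided by it. The most abundant member, miR-344b-5p, ranked 50 among all miRNAs by its sham mean, next to miR-149-5p (23509 ± 758 normalized counts) and miR-541-5p (22272 ± 1443; SD, n = 3 each), which do not differ from it beyond their spread.

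**Figure D2:**
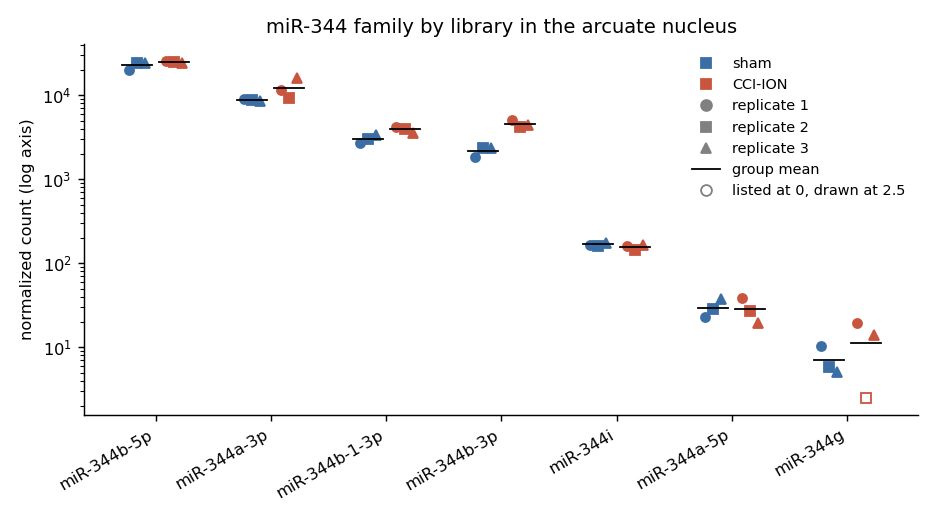
Normalized count of each miR-344 member (log y axis) in each library, with group means as lines. For miR-344b-3p the sham libraries sit between 1856 and 2378 and the CCI-ION libraries between 4155 and 5041, while the points of miR-344b-5p, miR-344i, miR-344a-5p and miR-344g overlap between the groups. The open square is CCI-ION replicate 2, where miR-344g is listed at 0 and drawn at 2.5.

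Whether the family differed after nerve injury was asked with limma on log2(normalized count + 1), fitted to the 555 miRNAs whose 6 libraries averaged 1 or more and adjusted over all of them by Benjamini-Hochberg. All 7 members were tested. Only miR-344b-3p passed an adjusted p of 0.05, and it rose in CCI-ION rats, while 6 of 7 did not pass. Over all miRNAs 6.85% passed, 19 higher and 19 lower. The higher calls were thus 50% of all calls, against 82.4% with total-count scaling, 61.2% with totals that leave out the most abundant miRNA and 7.69% with upper-quartile scaling. An unadjusted p under 0.05 was found for 2 of the 7, miR-344b-3p and miR-344b-1-3p, and for 33.0% of all miRNAs. CCI-ION libraries lay wholly above sham libraries for 3 of the 7, against 19.5% of all miRNAs, and wholly below for 0 of 7, against 21.3%. The median log2 fold change was 0.13 over the members and -0.015 over all miRNAs tested. On this scale 4 members had a positive and 3 a negative fold change.

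miR-344b-3p, the 3p strand of Mir344b-2 and Mir344b-3, stood at 1856, 2378 and 2343 normalized counts in the sham libraries (1624, 2860 and 2780 reads). The CCI-ION libraries gave 5041, 4155 and 4427 (5418, 3412 and 4112 reads). The lowest CCI-ION library was well above the highest sham library. Group means were 2192 ± 292 and 4541 ± 454 normalized counts (SD, n = 3 each), which is 2.07 fold. On the log2 scale the rise was 1.05 ± 0.15 (SE; 95% interval 0.67 to 1.43) with an adjusted p of 0.0282 from limma, and it ranked 36 among the 555 tested and 11 among the 19 that rose past the threshold. The two-sided exact permutation p over the libraries was 0.1, and 3 against 3 libraries cannot give a smaller one. The call was lost when sham replicate 1, 2 or 3 or CCI-ION replicate 3 was left out (limma adjusted p of 0.0679, 0.0768, 0.0804 and 0.0803), while the rise on the log2 scale was then 0.94, 1.12, 1.11 and 1.07. A replicate block in the fit also ended the call (limma adjusted p of 0.107), with the rise unchanged at 1.05. The summed neuronal and oligodendrocyte markers moved the other way between the same libraries, whereas 6 of 6 pituitary and epithelium miRNAs (median log2 fold change 0.72) and 5 of 5 of choroid plexus and ependyma (median 0.23) had a positive fold change, with 0 past the threshold in either list. Among miRNAs outside the lists, named after their values were seen, miR-203a-3p rose (log2 fold change 1.45, limma adjusted p 0.0307). This miRNA is known from epithelium, but in ARC sections the authors reported it mainly in cells with the neuronal marker NeuN. Of 8 strands of miR-126a, miR-143, miR-145 and miR-199a, known from vessel walls and mesenchymal cells, 3 rose and 0 fell past the threshold. Over all miRNAs, 6.85% passed it in either direction. The strands that rose were miR-143-3p (1.11), miR-145-5p (0.85) and miR-199a-5p (1.66). The log2 fold changes of the others were 0.69 for miR-143-5p, 0.44 for miR-126a-3p, 0.26 for miR-199a-3p, 0.12 for miR-145-3p and -0.91 for miR-126a-5p. The part of these cell types in the difference was not tested.

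miR-344b-1-3p, the strand of Mir344b-1 that differs by G2A, stood at 2694, 2977 and 3327 normalized counts in the sham libraries and at 4180.4, 3969.6 and 3604 in those of CCI-ION. The groups did not overlap, but sham replicate 3 and CCI-ION replicate 3 lay close together. Means were 2999 ± 317 and 3918 ± 292 normalized counts (SD, n = 3 each). The log2 difference of 0.39 ± 0.13 (SE; 95% interval 0.061 to 0.72) missed the threshold, with an adjusted p of 0.114 from limma. It was 0.058 with upper-quartile scaling and 0.59 with total counts.

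miR-344b-5p, the opposite strand of all the miR-344b hairpins, stood at 20249.5, 24299 and 24495 normalized counts in the sham libraries and at 25738, 25187 and 24115 in those of CCI-ION. Sham replicate 1 was the lowest library, and the other 5 lay within a narrow band in which the groups overlapped. Between the group means lay 0.13 ± 0.12 (SE) on the log2 scale, with an adjusted p of 0.496 from limma, and the 95% interval ran from -0.18 to 0.43, which is 0.881 to 1.35 as a fold. A rise as large as that of miR-344b-3p is outside this interval.

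**Figure D3:**
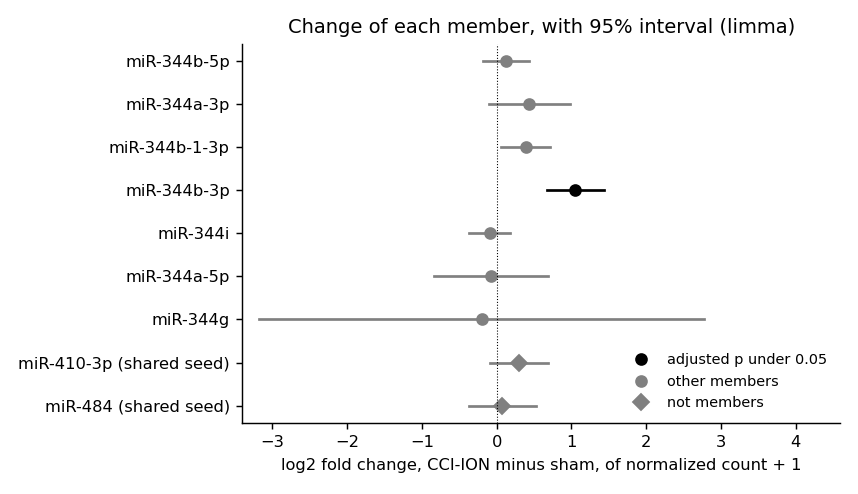
Log2 fold change of normalized count + 1, CCI-ION minus sham (x axis), for each miR-344 member and for miR-410-3p and miR-484, with 95% intervals from limma over 3 libraries per group. miR-344b-3p at 1.05 is the member drawn in black, and the interval of miR-344g, from -3.18 to 2.78, is the widest.

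Arms were paired by name and compared by dividing the 5p by the 3p strand and taking log2. The limma fit held 191 such pairs, here called hairpins, of which 11.5% passed. The pair of miR-344b-5p and miR-344b-1-3p was added to those matched by name, so miR-344b-5p enters this pair and that with miR-344b-3p. miR-344b-5p exceeded miR-344b-3p by 10.9, 10.2 and 10.5 fold in the sham libraries and by 5.11, 6.06 and 5.45 fold in those of CCI-ION. The ratio thus fell in CCI-ION libraries without overlap of the groups, by 0.93 on the log2 scale, with a standard error of 0.12 and an adjusted p of 0.0146 from limma over hairpins. This is the same rise of miR-344b-3p seen against its own partner strand, so it is not independent of it. The call was lost without sham replicate 1, 2 or 3 (limma adjusted p of 0.0749, 0.0752 and 0.0867, with log2 ratio changes of -0.90, -0.95 and -0.93). A replicate block also ended it (limma adjusted p of 0.0785), with the change unchanged at -0.93.

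For Mir344b-1, the ratio of miR-344b-5p to miR-344b-1-3p was 7.52, 8.16 and 7.36 in the sham libraries and 6.16, 6.35 and 6.69 in those of CCI-ION. These values did not overlap, and the change of -0.26 ± 0.12 (SE) missed the threshold, with an adjusted p of 0.190 from limma over hairpins. As the 5p value is summed over 3 hairpins, the ratio to both 3p strands together is the one free of that division. It was 4.44 ± 0.109 in sham and 2.96 ± 0.158 in CCI-ION libraries (SD, n = 3 each). Both 3p strands together came to 4549.8, 5355 and 5670.1 normalized counts in the sham libraries and 9221, 8124 and 8031 in those of CCI-ION, so that a different split of reads between them would leave their sum higher in each CCI-ION library. Reads entered under both names would be counted again in this sum, which a different split does not cover. The ratio of the group means of this sum was 1.63. It lay between 1.29 and 1.87 under the other scalings, without overlap of the groups in any of the 3.

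The balance between the 3p strands differed between the groups. miR-344b-3p over miR-344b-1-3p was 0.689, 0.799 and 0.704 in the sham libraries and 1.21, 1.05 and 1.23 in those of CCI-ION. Below 1 in every sham library and above 1 in every CCI-ION library, the ratio changed by 0.67 on the log2 scale, where the SD was 0.11 in sham and 0.13 in CCI-ION libraries (exact permutation test, two-sided p = 0.1, the smallest possible). This ratio was chosen after the values had been seen, so the test adds no support of its own. The ratio holds the same rise of miR-344b-3p and is not independent of it, and it depends on how reads with a mismatch were assigned. It does not depend on the size factors. Put as a share, miR-344b-3p was 42.2% ± 1.95 of both strands in sham and 53.6% ± 2.18 in CCI-ION libraries (SD, n = 3 each).

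**Figure D4:**
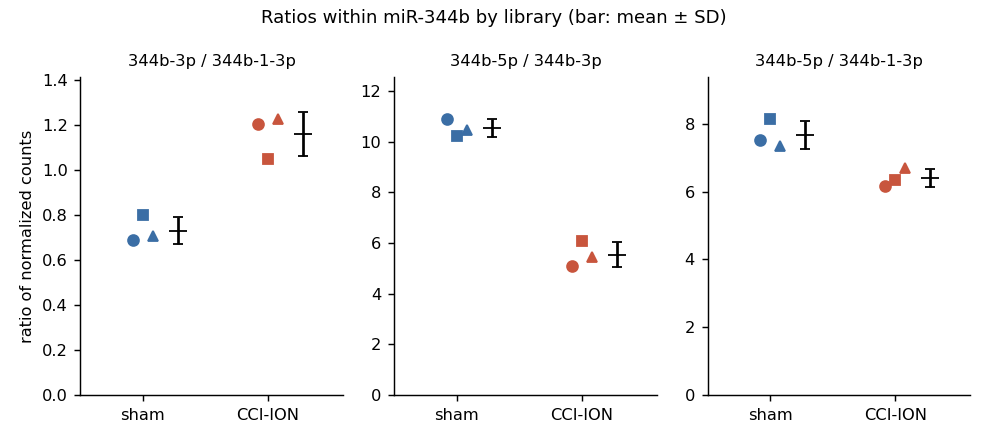
Ratios of normalized counts within miR-344b by library (y axes start at 0; circle, square and triangle are replicates 1, 2 and 3; bars are mean ± SD, n = 3). The ratio of miR-344b-3p to miR-344b-1-3p lies between 0.689 and 0.799 in sham and between 1.05 and 1.23 in CCI-ION libraries, and both ratios of the 5p strand are lower in CCI-ION libraries.

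miR-344a-3p was the second most abundant member, with 9125, 8833 and 8525 normalized counts in the sham libraries and 11459, 9247 and 16006 in those of CCI-ION. Sham libraries were close to each other, whereas the CCI-ION libraries spread widely, and CCI-ION replicate 2 lay only just above sham replicate 1. The means of 8828 ± 299.9 and 12237 ± 3446 normalized counts (SD, n = 3 each) differed by 0.43 ± 0.22 (SE; 95% interval -0.11 to 0.98) on the log2 scale, and the adjusted p of 0.212 from limma missed the threshold. With CCI-ION replicate 3 left out this difference was 0.22, and it was 0.10 with upper-quartile scaling and 0.64 with total counts.

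The name miR-344a-5p, whose RefSeq entry lies on Mir344a-2 and whose bases also occur in Mir344-1, was listed at 22.9, 28.3 and 37.1 normalized counts in the sham libraries and at 39.1, 26.8 and 19.4 in those of CCI-ION, from between 18 and 44 reads. The groups overlapped fully, with -0.076 ± 0.30 (SE) between them on the log2 scale and an adjusted p of 0.881 from limma. Of these names the 3p was the more abundant, and miR-344a-3p exceeded miR-344a-5p by 399, 312 and 229.9 fold in the sham libraries and by 293, 345 and 826 fold in those of CCI-ION. That both come from 1 hairpin is not shown by the sequences, since the entry nearest in name to miR-344a-3p lies on Mir344-1. The ratio of the names, 5p over 3p, gave a log2 difference of -0.51 ± 0.45 (SE) and missed the threshold, with an adjusted p of 0.480 from limma over hairpins. Without CCI-ION replicate 3 it was -0.061.

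miR-344i, from the 3p side of its hairpin, stood at 167, 162 and 174 normalized counts in the sham libraries and at 161, 145 and 166 in those of CCI-ION. It varied little among the libraries, with a log2 difference of -0.093 ± 0.11 (SE; 95% interval -0.37 to 0.18) and an adjusted p of 0.564 from limma. A rise of 1.05, that of miR-344b-3p, lies outside the interval of this member too.

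miR-344g was the rarest member, with 10.3, 5.82 and 5.06 normalized counts in the sham libraries (9, 7 and 6 reads). The CCI-ION libraries gave 19.5, 0 and 14.0 (21, 0 and 13 reads). CCI-ION replicate 2 was the shallowest library. With values this near the limit of 5 reads, the log2 difference of -0.20 ± 1.20 (SE), with an adjusted p of 0.927 from limma, has a 95% interval of -3.18 to 2.78. The means of 7.05 ± 2.82 and 11.2 ± 10.1 normalized counts (SD, n = 3 each) go the other way, and without CCI-ION replicate 2, the library listed at 0, the log2 difference was 1.18 with an adjusted p of 0.0973 from limma.

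**Figure D5:**
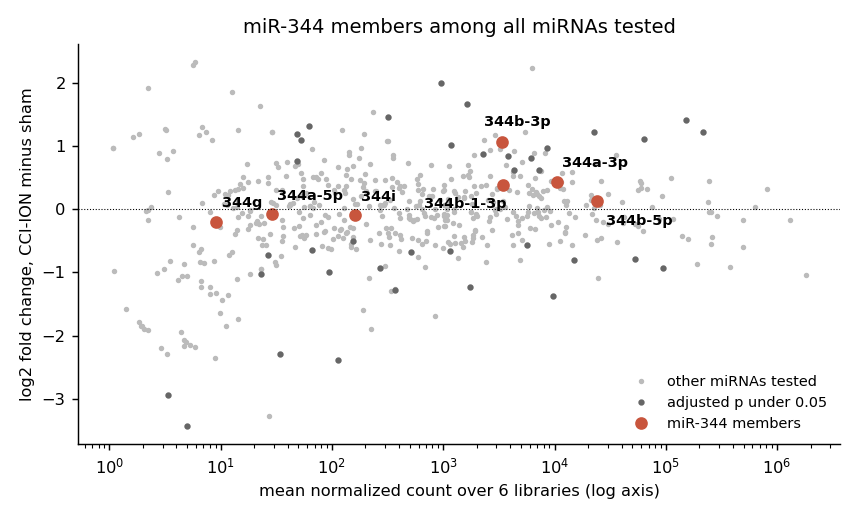
Log2 fold change, CCI-ION minus sham (y axis), against mean normalized count over 6 libraries (log x axis) for the 555 miRNAs tested, with the 7 miR-344 members marked. Of the members, miR-344b-3p at a log2 fold change of 1.05 is the one past an adjusted p of 0.05, and the others lie between -0.20 and 0.43.

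Shared seeds place some members beside other miRNAs. miR-410-3p, which has the seed of miR-344b-1-3p, stood at 3029, 3887 and 3613 normalized counts in the sham libraries and at 4029.65, 3983 and 4934 in those of CCI-ION. The groups did not overlap, and the log2 difference of 0.30 ± 0.16 (SE) missed the threshold, with an adjusted p of 0.226 from limma. miR-344b-1-3p gave 46.1% ± 2.42 of the normalized counts with this seed in sham and 47.7% ± 4.76 in CCI-ION libraries (SD, n = 3 each), where the seed is counted over these 2 names. Over 26 miRNAs of the Dlk1-Dio3 region, to which miR-410-3p belongs, 0 rose and 1 (miR-369-3p) fell past the threshold, and the median log2 fold change was -0.15, where 6.85% of all miRNAs passed. The list holds at most 1 strand per hairpin and not every hairpin. Other strands of the region that fell, named after their values were seen, were miR-433-5p (log2 fold change -0.93), miR-487b-5p (-0.9998) and miR-543-5p (-0.64), with limma adjusted p of 0.0334, 0.0190 and 0.0450. miR-496-5p also passed (limma, adjusted p = 0.00172), with 11, 13 and 8 reads in the sham libraries and a listed 0 in all 3 CCI-ION libraries, so that its fold change rests on the pseudocount and is not given. Strands of the region such as miR-127-5p (log2 fold change 0.95) and miR-380-5p (0.52) went the other way and did not pass (limma adjusted p of 0.0554 and 0.106).

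miR-484, which has the seed of miR-344a-5p, averaged 157 ± 32.0 normalized counts over the sham and 164 ± 15.5 over the CCI-ION libraries (SD, n = 3 each), 0.077 apart on the log2 scale with an adjusted p of 0.791 from limma. miR-344a-5p was 15.7% ± 0.705 of the counts of this pair in sham and 14.9% ± 5.57 in CCI-ION libraries. For the seed that miR-344b-5p shares with miR-344g, the second contributed at most 0.0759% in any library.

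The pattern over the 6 libraries most like that of miR-344b-5p was looked for among 488 other miRNAs with a mean of at least 10, by Pearson's r of log2(normalized count + 1). The 5 highest were miR-582-3p (r = 0.963), miR-1247-5p (0.962), miR-216a-3p (0.950), miR-490-3p (0.933) and miR-702-5p (0.918), given as a description over 6 libraries. The low value of sham replicate 1 was common to these profiles, and miR-216a-3p was listed at 0 there. Of the family, miR-344b-1-3p stood at 15 in that order (r = 0.828) and miR-344b-3p at 28 (r = 0.722), miR-344a-5p stood at 90 (r = 0.515), miR-344a-3p at 197 (r = 0.185) and miR-344i at 351 (r = -0.36). miR-344g averaged under 10 and was not compared.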

How the data were processed

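Total RNA of ARC tissue was sequenced as small RNA libraries. The authors deposited 1 signal value per mature miRNA and library; cutadapt 1.14, Bowtie 1.1.1 and build rn6 are named in the submitters' processing notes, while counting rules, miRNA annotation and treatment of mismatches are not given in the sources used here. Every deposited value was a whole multiple (within 0.05) of 1 step per library, and the reciprocals of the steps equalled median-of-ratios size factors over 485 miRNAs, so values are read counts over size factors from 0.821 to 1.20. Within a group, libraries differed by more than sampling noise.

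log2(value + 1) was compared with limma 3.58.1 in R 4.3.3, two-sided, with no covariate, keeping miRNAs that averaged 1 or more; arm ratios likewise. Scripts were tested on simulated data. Permutation tests used SciPy 1.17.1 and folds RNAfold 2.7.2. Sequences came from RefSeq (GRCr8), where 512 of the 562 names matched. The members, the marker lists and the tests were chosen with earlier results of these data known. Members were named by the start of their name, other miRNAs by a shared seed, a neighbouring sham level, a place among the 5 most similar profiles or a list. Alternatives were other scalings, filters, pseudocounts, values for a listed 0, an intensity trend, a replicate block, a threshold of 0.1 and leaving out each library.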

Additional observations from a re-analysis of the deposited data

How the results depend on the processing

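Over all miRNAs, 38 passed the threshold as reported; the number was 117 with upper-quartile scaling, 63 where the mean had to reach 10, 96 where each library had to hold 10 reads, 62 under a pseudocount of 10, 88 with an intensity trend, 100 at a threshold of 0.1 and 7 to 43 with a library left out. The cause of these shifts was not tested, beyond the fewer miRNAs that a filter leaves. The median over all miRNAs moved on the log2 scale from -0.015 to 0.17 with total counts, 0.023 without the most abundant miRNA and -0.34 with upper quartiles. Relative to that median, miR-344b-3p stood between 1.06 and 1.09 higher in each of these scalings. A scaling moves all miRNAs of a library by the same factor, so this difference could hardly change and is no test of the rise. With the replicate block 3 miRNAs passed, with 0 members (miR-344b-3p, adjusted p = 0.107 from limma) and 0 member hairpins; deviations of same-numbered libraries correlated at -0.031, 0.188 and -0.012, and the numbers were therefore not taken as pairs. With a library left out, 0 to 1 members and 0 to 1 member hairpins passed. miR-344b-3p kept its direction in all 17 alternatives (0.72 to 1.26) and passed in 12. Filters, values for a listed 0, the intensity trend and the replicate block cannot move its fold change, and pseudocounts hardly can. It was 1.05 in each of these. Only the other scalings and leaving out a library could move it by much. Fold changes of members that did not pass changed sign for miR-344b-5p (-0.21 with upper quartiles), for miR-344i (0.11) and miR-344a-5p (0.12) with total counts, and for miR-344g with a pseudocount of 10 (0.18) and with 2.5 reads for a listed 0 (0.47). With a library left out, miR-344a-5p ranged from -0.33 to 0.16 and miR-344g from -1.002 to 1.18. A filter of 10, as a mean or in every library, left no value for miR-344g. A test with edgeR was planned for the case of raw counts, and neither it nor DESeq2 was run. The values come divided by size factors, and the read numbers are inferred, since no value under 5 reads is listed above 0. The ratio of the group means, 1.23 for the family sum and 1.63 for both miR-344b 3p strands together, was 1.41 and 1.87 with total counts and 0.978 and 1.29 with upper quartiles, scalings tried for these sums after the data were seen. Low read numbers, 0 to 21 for miR-344g and 18 to 44 for miR-344a-5p, limit what their values can show.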
